A study of Mus musculus with 8 samples.

Results

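Potassium channels are described here through 62 genes, the 60 whose symbol starts with Kcn together with Dpp6 and Dpp10, out of 9229 genes in the authors' deposited table of cluster markers from mouse dorsal root ganglion. They follow a naming rule that was set with earlier results of these data known. They hold 535 of the 56694 listed pairs of gene and cluster. The mouse annotation GENCODE M21 has 96 protein-coding genes that meet the same rule, of which 61 are listed; the 62nd gene, Kcnq1ot1, is a long non-coding RNA. The other 35 coding genes passed the table's filter in no cluster and were not read as absent.

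Potassium channels let potassium leave the cell, which pulls the membrane towards rest, sets the firing threshold and ends the action potential. Voltage-gated (Kv) channels open on depolarization, calcium- and sodium-activated channels follow activity inside the cell, inward rectifiers and tandem-pore (K2P) channels carry current near rest. Auxiliary proteins such as the KChIPs and the DPP-like proteins Dpp6 and Dpp10 bind the pore subunits and change their surface number and gating. In sensory neurons these channels are known as brakes on firing, and their mixture differs between neurons of pain, itch, cold and touch.

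The study labelled living ganglion cells of C57BL/6 mice aged 21 to 30 days with an antibody to a proteasome subunit, so as to mark a neuronal membrane proteasome (NMP), and sorted them into NMP-positive and NMP-negative populations. Cells of 4 mice were pooled per sample, and the labels give 4 samples for each population. The sample descriptions name 4 lanes of 1 library for each, so there was no biological replicate, and both populations carried the same antibody labelling and genotype. The table sets each of 20 clusters against all other cells and names no sample, so no channel gene could be compared between NMP-positive and NMP-negative cells.

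In the authors' deposited table each listed pair has a log2 fold change of the cluster mean over the mean of other cells and the share of cells in which the transcript was found. A gene is called higher or lower below at a deposited adjusted p under 0.05. These p-values take cells as units and come from clusters defined on the same expression, so they serve only as a filter. All fold changes and shares of cells below are values of that table unless another source is given, with no replicate error and no known depth. A software constant added to both means makes the fold changes of rare transcripts smaller than the true ratios.

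The 20 clusters carry the authors' names. As solved from the deposited shares, 40.8% of cells lay in the 10 named neuron clusters, 28.6% in 3 clusters named Low.UMI (few molecules per cell) and 30.7% in 7 clusters named Unknown. Single clusters held from 1.24% (Heat.sen) to 14.1% (Low.UMI.Pep). Although the samples are labelled as somatosensory neurons, 8 of 8 neuron markers (Rbfox3, Snap25, Tubb3, Uchl1, Prph, Syt1, Stmn2 and Scn9a) were lower in each Unknown cluster. Marker lists of 6 genes each were higher in full in Unknown.1 (endothelial), Unknown.2 (satellite glia), Unknown.3 (mural), Unknown.4 (Schwann), Unknown.5 and Unknown.6 (fibroblast) and Unknown.488p (macrophage). Some clusters had part of a further list higher, such as 3 of 6 mural markers in Unknown.5 (1 lower) and 2 of 6 satellite glia markers in Unknown.4 (3 lower). By the list that was higher in full, the Unknown clusters are called endothelial-like, satellite-glia-like and so on below. The lists were chosen with earlier results of these data known, so these names are descriptions and were not tested.

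Potassium channel genes were called higher mostly in neurons. In the 10 named neuron clusters 146 of 620 possible pairs were higher, 23.5% against a background of 10.9% for all genes of the table, and 56 were lower, 9.03% against 6.72%. In the Unknown clusters 17 of 434 pairs were higher (3.92% against 10.2%) and 205 were lower (47.2% against 27.1%). In the Low.UMI clusters 13 of 186 were higher (6.99% against 10.9%) and 43 lower (23.1% against 20.6%). The shares of members called higher thus lay above the background in neurons and below it in the other cluster groups, and no test of the list was made. The 16 members lower in all 7 Unknown clusters were found there in 0.0 to 14.2% of cells, and depth per cell is not known for any cluster, so a share in that range cannot be told apart from free RNA. How many of all genes were lower in all 7 was not counted.

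Cluster by cluster, Cold.sen had the most members higher, 20 of 62 (32.3%, against 11.0% of all genes), then CGRP-a with 18 (29.0% against 12.5%) and Heat.sen with 17 (27.4% against 12.6%). CGRP-e and LTMR had 16 each (25.8%, against 9.77% and 12.5%), Non-peptidergic 15 (24.2% against 9.86%), CGRP-z 13 (21.0% against 11.3%) and CGRP-n 12 (19.4% against 9.61%). SST with 10 (16.1% against 12.5%) and Peptidergic.488p with 9 (14.5% against 7.05%) had the fewest among the neurons. The Low.UMI clusters had 4 in Low.UMI.Pep (6.45% against 10.8%), 5 in Low.UMI.Nonpep (8.06% against 10.9%) and 4 in Low.UMI.LTMR (6.45% against 10.9%).

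Of the non-neuronal clusters, Unknown.2 (background 13.0%), Unknown.3 (8.05%) and Unknown.4 (5.21%) had 4 members higher each, 6.45%, and Unknown.5 had 2 (3.23% against 9.67%). Unknown.1 (18.0%), Unknown.6 (7.39%) and Unknown.488p (9.91%) had a single member higher each, 1.61%. Over the members listed in a cluster, the median log2 fold change ran from -0.44 in SST to 0.66 in CGRP-a among the named neurons, where the medians of all listed genes ran from -0.32 to 0.33. In the Unknown clusters it ran from -0.53 to -0.42, against -0.40 to -0.31 for all listed genes.

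**Figure D1:**
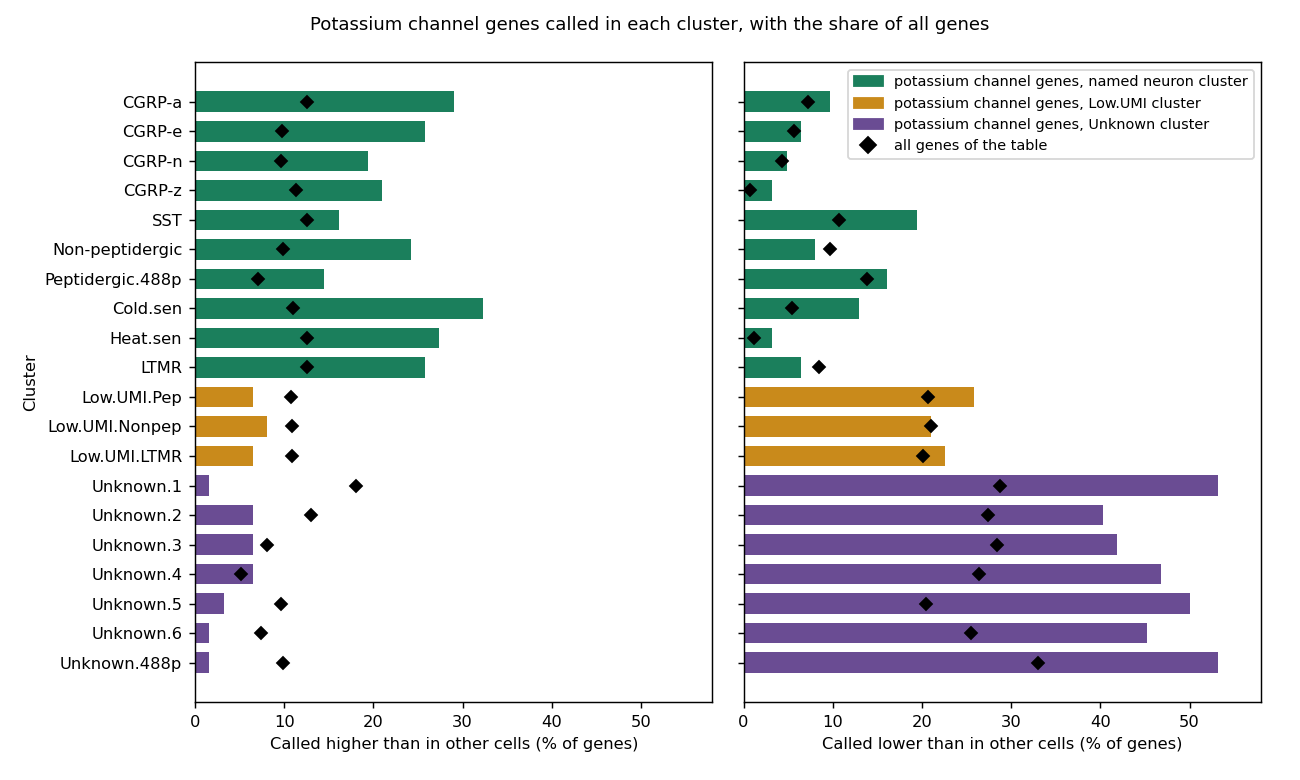
Share of the 62 potassium channel genes (bars) and of all 9229 genes of the table (diamonds) called higher (left) or lower (right) than in other cells, in percent, for each of the 20 clusters. The bars reach past the diamonds on the left in all 10 named neuron clusters, from 14.5% in Peptidergic.488p to 32.3% in Cold.sen, and stay short of them in the Low.UMI and Unknown clusters except Unknown.4.

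All 62 members were higher in at least 1 cluster, against 85.9% of all genes, which follows in part from the filter since a gene enters the table by differing somewhere. By cluster group, 54 members were higher in a named neuron cluster (background 43.2%), 16 in an Unknown cluster (42.3%) and 12 in a Low.UMI cluster (23.8%). The largest called fold change lay in a named neuron cluster for 46 members, in an Unknown cluster for 14 and in Low.UMI.Nonpep for 2. Ranked by share of cells, the top cluster was a named neuron cluster for 54 members. Of the members, 31 had values for 10 or more clusters and 12 for a single cluster, while Kcnmb2 alone had values for all 20. The shares of all genes with such a top cluster or number of listed clusters were not computed, so these counts only describe the members.

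**Figure D2:**
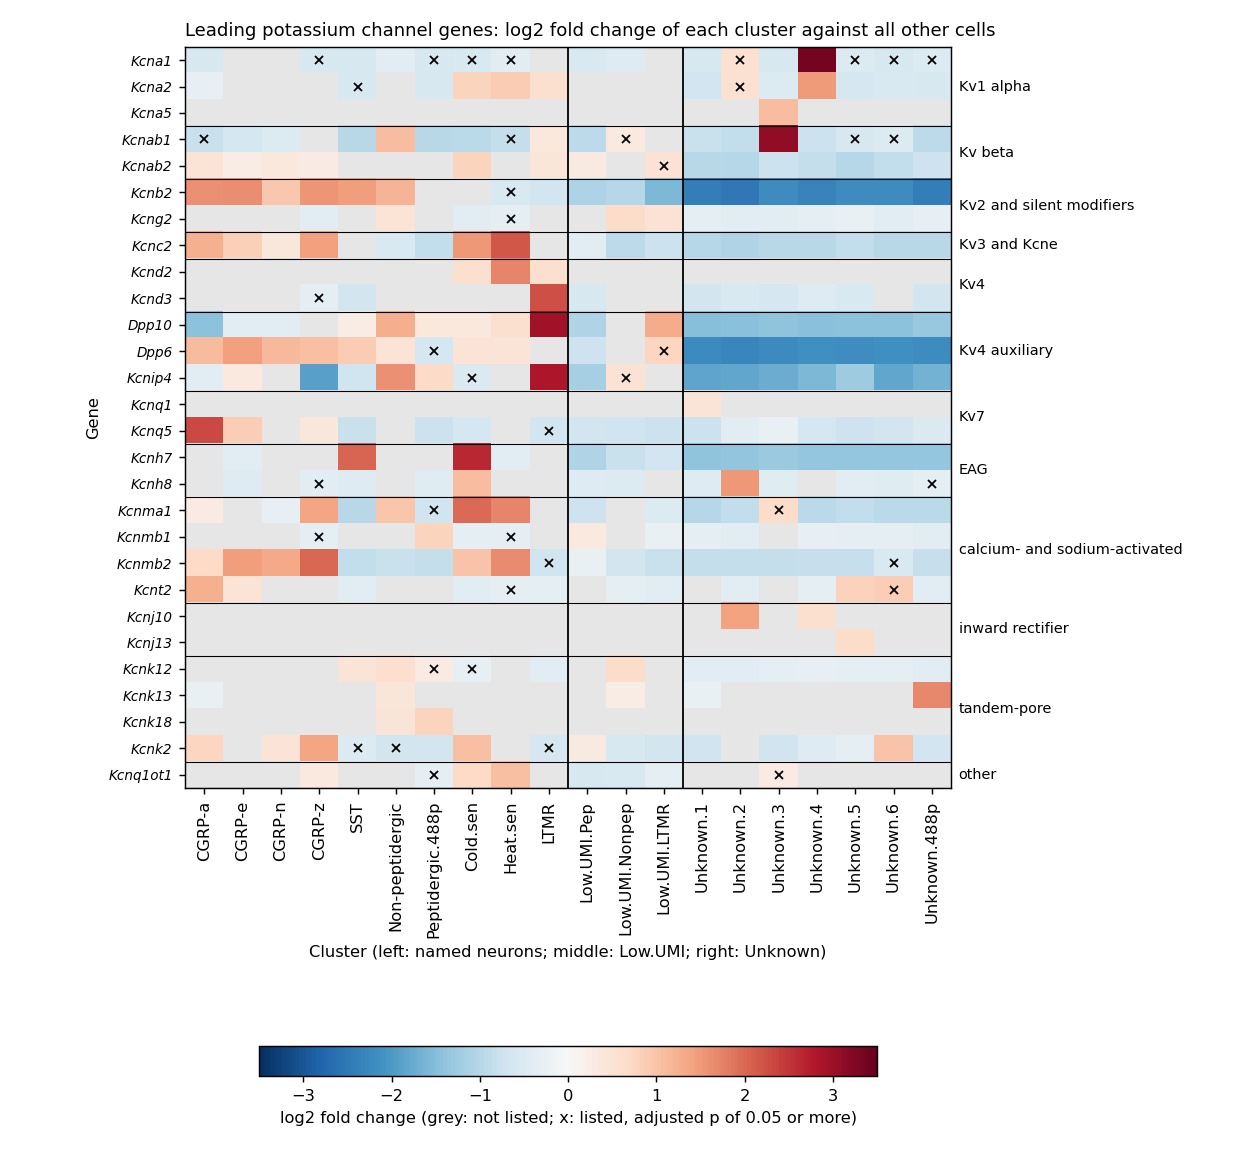
Deposited log2 fold changes (colour) of 28 potassium channel genes that lead or trail in a cluster or role group (rows, grouped by role) in the 20 clusters (columns, named neurons left of Low.UMI and Unknown). Grey cells are pairs not listed and crosses are listed pairs with an adjusted p of 0.05 or more; Kcna1 in Unknown.4 (3.36) and Kcnab1 in Unknown.3 (3.11) stand out among the blue Unknown columns.

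The A-type Kv4 channels, which open below threshold, inactivate fast and delay firing, had a shared place in LTMR, a name used for low-threshold touch neurons. The pore subunit Kcnd3 was in 100% of LTMR cells and 26.3% of other cells (log2 fold change 2.25). It was higher in no other cluster, lower in SST (-0.65, in 13.9% of its cells) and listed in CGRP-z without a call (-0.35, in 45.8%). The related Kcnd1 was also highest in LTMR (0.77, in 99.7% of cells against 26.2%). It was also higher in Peptidergic.488p (0.54, in 43.7%), Low.UMI.Nonpep (0.42, in 10.6%) and Non-peptidergic (0.40, in 97.3%).

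Kcnd2, the third Kv4 pore gene, was rarer and had its largest fold change in Heat.sen. It was in 83.7% of Heat.sen cells and 7.2% of other cells (1.71). It was also called higher in LTMR (0.57, in 82.5% of cells against 5.1%) and Cold.sen (0.55, in 40.4% against 6.7%). All 3 Kv4 pore genes were thus higher in LTMR, beside 12.5% of all genes. Set against the mean of all cells, so that clusters can be compared directly, Heat.sen lay 1.15 log2 units above Cold.sen for Kcnd2.

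Of the 6 partner genes of Kv4, 3 were called higher in LTMR (Dpp10, Kcnip4 and Kcnip2) and 0 lower, beside 12.5% of all genes called higher there. Kcnip1 was listed in LTMR at -0.41 (in 37.9% of cells against 22.8%) without a call, and Dpp6 and Kcnip3 were not listed for it. Dpp10, which speeds the gating of Kv4, was in 100% of LTMR cells and 29.1% of other cells (2.95). It was also higher in Low.UMI.LTMR (1.29), Non-peptidergic (1.26), Heat.sen (0.55), Peptidergic.488p (0.36), Cold.sen (0.36) and SST (0.25), but lower in CGRP-n (-0.40), CGRP-e (-0.41) and CGRP-a (-1.43, in 14.0% of cells against 33.3%). The level of Dpp10 in LTMR was 3.97 log2 units above that in CGRP-a.

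Kcnip4, a calcium-binding KChIP, was in 100% of LTMR cells and 40.6% of other cells (2.84) and in 100% of Non-peptidergic cells (1.59). Peptidergic.488p (0.66) and CGRP-e (0.34) were higher too. It was lower in CGRP-a (-0.41) and SST (-0.70), though in 80.3% and 93.5% of their cells. In CGRP-z it was the lowest called member, in 14.0% of cells against 43.3% (-1.89), a distance of 4.40 log2 units from LTMR. In the Unknown clusters it was in 4.3 to 14.2% of cells, where the neuron markers were low.

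The KChIP gene Kcnip2 was higher in Non-peptidergic (0.75, in 99.0% of cells against 15.1%), LTMR (0.62, in 99.4%) and Peptidergic.488p (0.26, in 37.7%). Kcnip1 was higher in CGRP-a (1.57, in 98.1% of cells against 17.4%), CGRP-n (0.88) and CGRP-e (0.76), and Kcnip3 in CGRP-n alone (0.31, in 82.6% against 29.8%).

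Dpp6 was the broad member of the set, higher in 8 of 10 named neuron clusters. CGRP-e led (1.44, in 100% of cells against 46.8%), followed by CGRP-n (1.14), CGRP-a (1.10) and CGRP-z (1.04), while LTMR was not listed. In Peptidergic.488p (-0.62) it was not called, and it was lower in all 7 Unknown clusters, from -2.28 to -2.15. The 6 auxiliary genes of Kv4 together were higher in 25 of 60 possible pairs with a named neuron cluster and lower in 10, beside 10.9% and 6.72% of pairs over all genes.

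**Figure D3:**
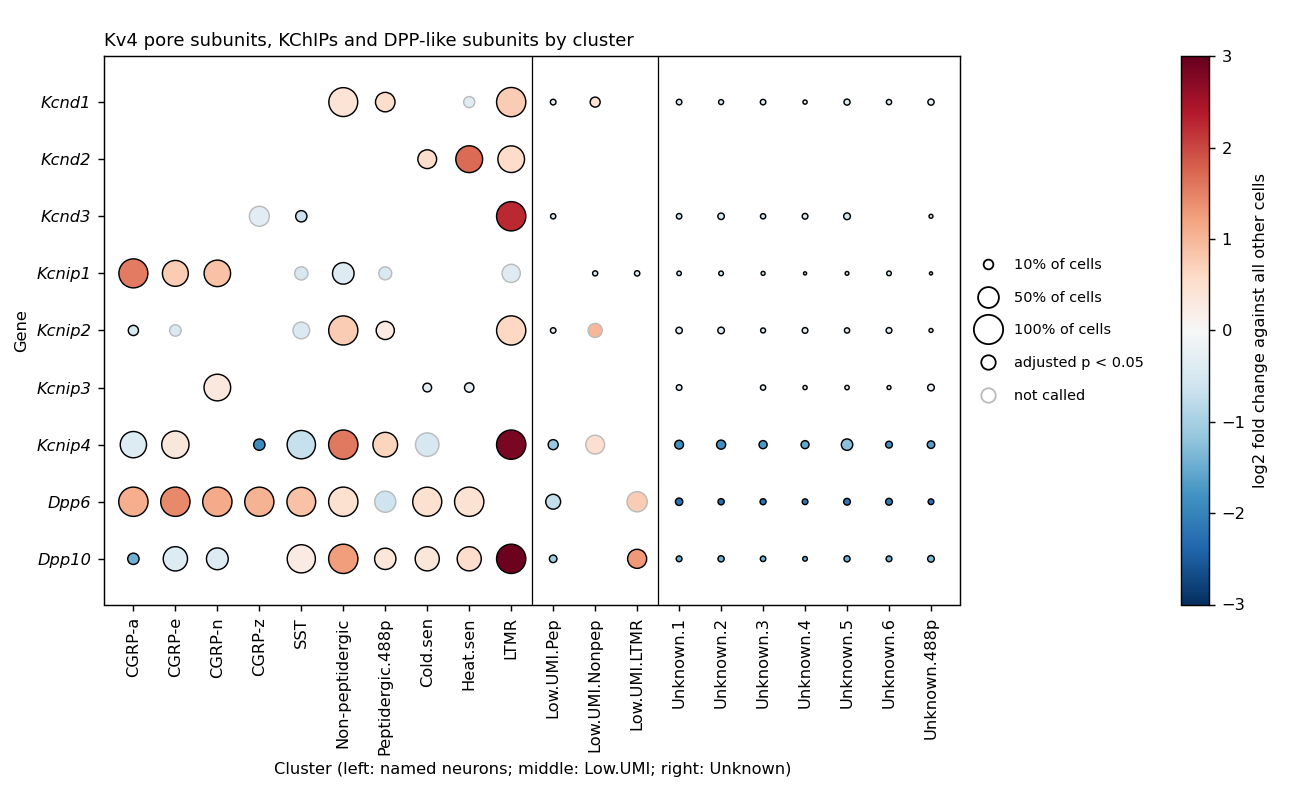
Kv4 pore genes (Kcnd1 to Kcnd3), KChIP genes (Kcnip1 to Kcnip4) and the DPP-like genes by cluster. Dot area grows with the share of the cluster's cells that hold the transcript, colour is the deposited log2 fold change and a black edge marks an adjusted p under 0.05; Dpp10 (2.95), Kcnip4 (2.84) and Kcnd3 (2.25) share their darkest dot in LTMR, and Kcnip1 (1.57) has its own in CGRP-a.

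Across the named neuron clusters in which both were listed, the levels of Dpp10 and Kcnip4 correlated with r = 0.82 over 7 clusters, those of Kcnip2 and Kcnip4 with 0.88 over 6 and those of Dpp10 and Kcnip2 with 0.82 over 6. Dpp6 and Kcnip1 had r = 0.66 over 6 clusters. The other pairs with at least 6 shared clusters were negative, at -0.77 for Dpp10 and Kcnip1, -0.64 for Kcnip1 and Kcnip2, -0.53 for Dpp10 and Dpp6, -0.44 for Kcnip1 and Kcnip4 and -0.42 for Dpp6 and Kcnip4, over 6 to 8 clusters. These values are descriptions, as the points share the same libraries and clusters. The sequences that precede the RefSeq starts of the 3 genes leading in LTMR are shown, since those genes were high together there. Each is 250 bases of build GRCm38.p6, read 5′ to 3′ on the gene's strand up to the last base before the start, for Kcnd3 chr3:105451640-105451889 (plus strand), for Kcnip4 chr5:49285660-49285909 (minus strand, the farther upstream of 2 starts) and for Dpp10 chr1:124045560-124045809 (minus strand). Capitals mark GC boxes (GGGCGG on either strand).
Kcnd3: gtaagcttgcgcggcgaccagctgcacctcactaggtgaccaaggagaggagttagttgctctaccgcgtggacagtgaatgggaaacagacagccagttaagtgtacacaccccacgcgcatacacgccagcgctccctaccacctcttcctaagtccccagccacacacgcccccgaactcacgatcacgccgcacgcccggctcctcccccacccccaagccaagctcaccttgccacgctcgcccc
Kcnip4: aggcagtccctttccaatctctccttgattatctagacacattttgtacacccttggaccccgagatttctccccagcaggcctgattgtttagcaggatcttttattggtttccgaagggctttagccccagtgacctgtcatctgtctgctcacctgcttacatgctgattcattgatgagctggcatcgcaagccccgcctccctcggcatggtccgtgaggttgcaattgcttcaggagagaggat
Dpp10: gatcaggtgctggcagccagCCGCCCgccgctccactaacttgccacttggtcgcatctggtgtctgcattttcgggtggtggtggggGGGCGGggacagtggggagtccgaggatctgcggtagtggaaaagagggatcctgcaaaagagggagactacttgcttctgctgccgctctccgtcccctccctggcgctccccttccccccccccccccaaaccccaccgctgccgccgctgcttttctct
The GC box, found in 32.7% of 32851 such RefSeq windows, occurred at 2 places before Dpp10 and at 0 before Kcnd3 and Kcnip4. The RUNX core TGTGGT (in 14.0% of windows) and the TATA motif TATAAA (in 12.4%), searched on both strands, matched in 0 of the 3. None of the 3 motifs contains another. The GC content was 62.8% for Kcnd3, 51.2% for Kcnip4 and 65.2% for Dpp10, against a mean of 53.2% over all windows. Which start is used in these cells was not measured.

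Kv1 subunits, which hold the axon below threshold, had higher calls in named neuron, Schwann-like and mural-like clusters and, for Kcna4, in Low.UMI.LTMR. Kcna1 had the largest fold change of any member and cluster, 3.36 in the Schwann-like Unknown.4, where it was in 79.5% of cells against 11.1% of other cells. It was higher in no neuron cluster. In Non-peptidergic it was called lower (-0.40) although it was found in 59.0% of those cells against 10.4%, so mean level and detection went opposite ways. The 4 clusters not listed for Kcna1, CGRP-e, CGRP-n, LTMR and Low.UMI.LTMR, together held it in 31.0% of their cells, as solved from the overall share.

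Kcna2 was higher in Unknown.4 as well (1.49, in 43.8% of cells against 35.9%) and in Heat.sen (0.90, in 94.9%), Cold.sen (0.79, in 92.2%) and LTMR (0.55, in 99.7%). The A-type subunit gene Kcna4 was higher in those same 3 neuron clusters, at 0.76 in Heat.sen, 0.67 in Cold.sen and 0.52 in LTMR. Kcna6 was higher in SST (0.26, in 91.1% against 32.6%). Kcna5, known from vascular smooth muscle, was listed for the mural-like Unknown.3 alone (1.09, in 32.5% of cells against 1.4%).

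The Kv beta gene Kcnab1, whose product can make Kv1 channels inactivate, was highest in Unknown.3 (3.11, in 85.1% of cells against 22.4%). Among neurons it was higher in Non-peptidergic (1.07, in 97.1%) and LTMR (0.38, in 97.7%). It was the lowest called member in CGRP-e (-0.61), CGRP-n (-0.47), Cold.sen (-0.94), Peptidergic.488p (-0.97) and SST (-0.98). In CGRP-e and CGRP-n it was nevertheless detected in more cells than elsewhere, 47.9% and 50.3%. Kcnab2 was higher in 6 neuron clusters, led by Cold.sen (0.78) and CGRP-a (0.47, in 99.1% of cells against 41.8%), and lower in all 7 Unknown clusters, in 4.1 to 9.7% of cells.

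Kv2 channels carry much of the delayed rectifier current of neuron cell bodies. Kcnb2 was higher in CGRP-e (1.62), CGRP-a (1.60), CGRP-z (1.55), SST (1.45), Non-peptidergic (1.18) and CGRP-n (0.95), in 93.7 to 100% of their cells. In LTMR it was lower (-0.67) although it was found in 100% of cells, and in Heat.sen it was listed at -0.52 without a call. In the Unknown clusters it was in 2.3 to 7.1% of cells, at -2.50 to -2.20.

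The silent subunits, which form no channel of their own and modify Kv2, were each higher in 3 or fewer named neuron clusters. The share of all genes higher in so few was not computed, so this count only describes them. Kcns3 was higher in CGRP-z (0.86, in 96.3% of cells against 26.7%), CGRP-n (0.44) and CGRP-e (0.26), and lower in LTMR (-0.29, in 11.7%). Kcns2 was listed for CGRP-a alone (0.48, in 76.5% against 7.0%), Kcng3 for Non-peptidergic alone (0.32, in 83.3% against 14.7%) and Kcnv1 for CGRP-e (0.28, in 59.0% against 7.1%) and Low.UMI.Pep (0.25).

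Kcng2 was higher in Non-peptidergic (0.47, in 84.0% of cells against 20.8%) and in Low.UMI.Nonpep (0.65) and Low.UMI.LTMR (0.51), where 13.6% and 7.8% of cells held it. All 7 genes of Kv2 and its silent modifiers were higher in at least 1 named neuron cluster, and 0 of 7 in an Unknown cluster, beside 43.2% and 42.3% of all genes.

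Kv3 channels open at strong depolarization and close fast, which allows rapid repolarization. Kcnc2 was higher in Heat.sen (2.18, in 100% of cells against 37.5%), Cold.sen (1.53), CGRP-z (1.43), CGRP-a (1.25), CGRP-e (0.84) and CGRP-n (0.39). It was lower in Peptidergic.488p (-0.86, in 21.6% of cells) and, with 85.9% of cells, in Non-peptidergic (-0.54). The distance between Heat.sen and Peptidergic.488p was 2.96 log2 units.

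Kcnc4, which codes for the inactivating Kv3 subunit, was higher in CGRP-a alone (1.56, in 99.1% of cells against 20.5%). It was lower in SST (-0.66, in 1.3%) and Peptidergic.488p (-0.65, in 0.9%). Kcnc1 was higher in Cold.sen (0.46, in 73.3% against 16.6%), CGRP-a (0.37) and Heat.sen (0.30). Kcne4, a membrane-spanning auxiliary subunit, was listed for the mural-like Unknown.3 alone (0.60, in 16.6% of cells against 0.4%).

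Kv7 subunits form the M channel, a slow brake that muscarinic and bradykinin receptors close. Kcnq5 was higher in CGRP-a (2.31, in 99.0% of cells against 18.0%), CGRP-e (0.87, in 87.5%) and CGRP-z (0.40, in 87.9%). It was lower in SST (-0.77, in 4.6%), Peptidergic.488p (-0.76, in 2.2%) and Cold.sen (-0.62, in 14.2%). The 3 clusters without a listed value, CGRP-n, Heat.sen and Non-peptidergic, held it in 79.5% of their cells on average, at a level 0.06 log2 units above the mean of all cells, so that not listed did not mean not detected.

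Kcnq3, a subunit of the M channel, was listed for Peptidergic.488p alone (0.46, in 16.0% of cells against 2.0%). Kcnq1 was listed for the endothelial-like Unknown.1 (0.45, in 17.8% against 1.0%).

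Channels of the EAG family include the ERG channels, which damp repeated firing. The ERG gene Kcnh7 was called higher in a pair of clusters, Cold.sen (2.65, in 99.4% of cells against 34.1%) and SST (2.05, in 93.5%). In Heat.sen it was called lower (-0.38) with 74.5% of cells positive, and in CGRP-e likewise (-0.36, in 62.0%). The other ERG genes Kcnh2 (0.26, in 48.0% of cells against 13.6%) and Kcnh6 (0.26, in 58.2% against 21.5%) were called in Heat.sen. Kcnh1 was highest in CGRP-a (1.29, in 98.8% against 23.2%), and Kcnh8 in the satellite-glia-like Unknown.2 (1.51, in 55.7% against 12.0%) and Cold.sen (1.08, in 68.6%). All 5 EAG members were higher in at least 1 named neuron cluster, beside 43.2% of all genes.

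The large-conductance channel gene Kcnma1 opens with calcium and voltage together. It was higher in Cold.sen (1.98, in 97.1% of cells against 33.5%), Heat.sen (1.71), CGRP-z (1.39), Non-peptidergic (0.96) and CGRP-a (0.29), and lower in CGRP-n (-0.28, in 77.2%) and SST (-0.97, in 17.1%). Between Cold.sen and SST the levels were 2.73 log2 units apart. In the mural-like Unknown.3 it was listed at 0.65 in 39.1% of cells, without a call.

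Its auxiliary subunits were not placed alike. Kcnmb2, which inactivates the channel, was listed in all 20 clusters. It was higher in CGRP-z (2.02, in 99.1% of cells against 24.8%), Heat.sen (1.66), CGRP-e (1.47), CGRP-n (1.33), Cold.sen (1.00) and CGRP-a (0.70), each with 94.5 to 100% of cells. It was lower in SST (-0.85, in 4.3%), Peptidergic.488p (-0.83, in 1.7%) and Non-peptidergic (-0.77, in 16.3%), and listed in LTMR at -0.71 without a call.

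Kcnmb1, the auxiliary subunit known from smooth muscle, was higher in Peptidergic.488p (0.79, in 43.7% of cells against 20.7%) and Low.UMI.Pep (0.33, in 8.7%), and was not listed for the mural-like cluster. It lies on the strand opposite to Kcnip1 within the same locus in GENCODE M21, and the labels do not say whether strand was used in counting. Kcnmb4, the auxiliary subunit of brain neurons, was higher in Unknown.2 (0.69, in 42.1% against 29.4%), Heat.sen (0.68, in 89.8%) and Non-peptidergic (0.29, in 95.9%).

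Small-conductance channels, opened by calcium through calmodulin, shape the pause after a spike. Kcnn2 was higher in Heat.sen (1.49, in 96.9% of cells against 25.7%), CGRP-a (0.61) and Cold.sen (0.44). Kcnn3 was higher in Cold.sen (0.85, in 69.2% against 3.6%) and Heat.sen (0.47, in 54.1% against 5.9%), and Kcnn1 in SST (0.53, in 90.5% against 12.6%) and Peptidergic.488p (0.38, in 31.6%). Kcnn4, the intermediate-conductance channel, was higher in Unknown.2 (1.15, in 46.9% of cells against 4.2%). That cluster held 52.4% of all cells with a Kcnn4 transcript, as solved from the shares. It was the single member of the 10 calcium- and sodium-activated genes that was higher in no named neuron cluster, where 43.2% of all genes were higher.

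Sodium-activated channels, which respond to sodium entry during firing, were led by different clusters. Kcnt1 was higher in Non-peptidergic (0.53, in 97.6% of cells against 27.4%), Peptidergic.488p (0.49, in 44.2%), Low.UMI.Nonpep (0.39, in 9.8%) and SST (0.28, in 90.2%). Kcnt2 was higher in CGRP-a (1.25, in 95.9% against 10.5%) and CGRP-e (0.49, in 70.1%), and in the fibroblast-like Unknown.5 (0.82, in 27.4%). In Unknown.6, also fibroblast-like, it was listed at 0.86 (in 27.0% of cells) without a call. At an adjusted p under 0.001 the call of Kcnt2 in Unknown.5 was lost (adjusted p = 0.011 in the authors' deposited table).

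**Figure D4:**
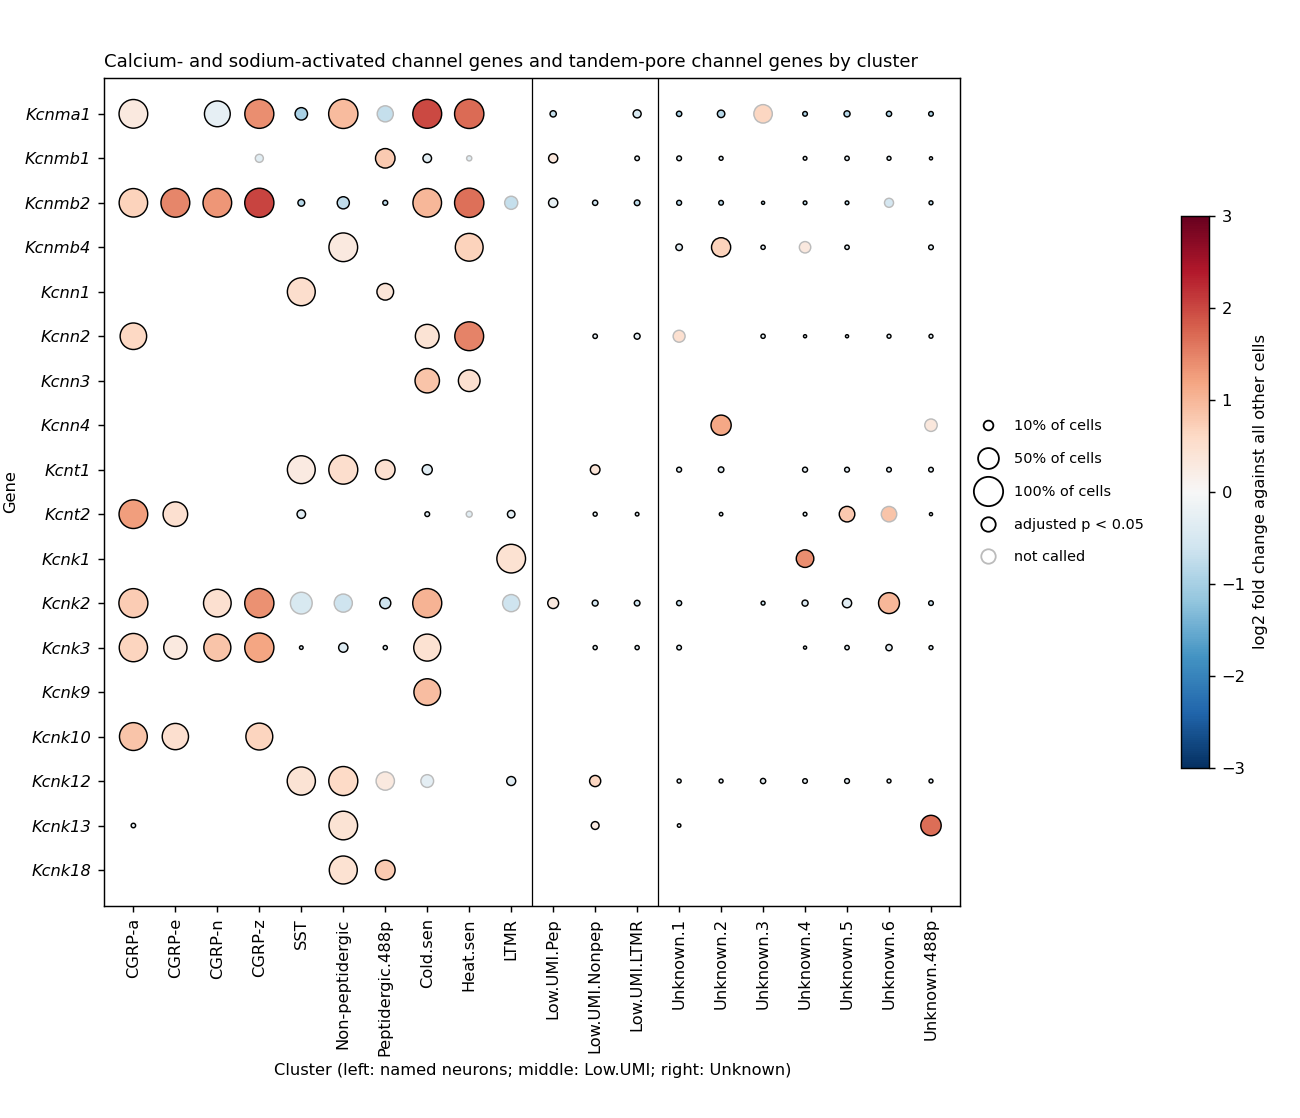
Calcium- and sodium-activated channel genes (Kcnma1 to Kcnt2) and tandem-pore channel genes (Kcnk1 to Kcnk18) by cluster. Dot area grows with the share of the cluster's cells that hold the transcript, colour is the deposited log2 fold change and a black edge marks an adjusted p under 0.05; Kcnmb2 has large red dots in CGRP, Cold.sen and Heat.sen clusters, and Kcnk9 has its single listed dot in Cold.sen (0.92).

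Inward rectifiers pass current near rest, and the G-protein-gated ones answer to opioid and other inhibitory receptors. Kcnj10, the glial channel that buffers potassium around sensory cell bodies, was higher in Unknown.2 (1.40, in 55.8% of cells against 1.5%) and Unknown.4 (0.56, in 16.0% against 6.1%). Unknown.2 held 78.6% of all cells with a Kcnj10 transcript, 78.0 to 79.2% when the rounding of the deposited shares is taken into account. Kcnj13 was listed for the fibroblast-like Unknown.5 alone (0.65, in 16.3% against 0.4%).

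In neurons, Kcnj6 was listed for LTMR alone (0.54, in 92.6% of cells against 2.0%), so that LTMR held 65.4% of the cells with its transcript. Kcnj3, its G-protein-gated partner, was higher in CGRP-e (0.36, in 75.1% against 14.2%) and SST (0.31, in 76.8% against 13.3%), and was not listed for LTMR. Kcnj12 was higher in LTMR (0.76, in 98.7% against 20.6%). Of the 5 inward rectifier genes 3 were higher in a named neuron cluster and 2 in an Unknown cluster, close to the 43.2% and 42.3% of all genes.

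Tandem-pore channels carry background current and answer to pH, stretch, heat and lipids. The acid-sensitive Kcnk9 was listed for Cold.sen alone (0.92, in 82.6% of cells against 1.1%), and Cold.sen held 77.5% of all cells with the transcript. Its close relative Kcnk3 was higher in CGRP-z (1.19, in 99.1% of cells against 21.9%), CGRP-n (0.85), CGRP-a (0.66), Cold.sen (0.46) and CGRP-e (0.29), and was in 0.4% of SST cells (-0.43).

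The stretch- and heat-sensitive Kcnk2 was higher in CGRP-z (1.38, in 99.1% of cells against 32.4%), Cold.sen (1.05), CGRP-a (0.75) and CGRP-n (0.48), in the fibroblast-like Unknown.6 (1.00, in 50.4%) and in Low.UMI.Pep (0.31, in 12.8%). The related Kcnk10 was higher in CGRP-a (0.85, in 90.2% against 12.1%), CGRP-z (0.67) and CGRP-e (0.51). Over the named neuron clusters listed for both, the levels of Kcnk2 and Kcnmb2 correlated with r = 0.96 over 8 clusters and those of Kcnk3 and Kcnmb2 with 0.94 over 8. These pairs are named because their values were among the highest of all member pairs, and they are descriptions over clusters that share libraries. Clusters with levels near the mean are not listed and are missing here too.

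Kcnk18, the channel gene linked to migraine in people, was listed for a pair of clusters. It was in 91.3% of Non-peptidergic cells against 4.2% of other cells (0.46), and in 44.6% of Peptidergic.488p cells against 7.7% (0.79). Kcnk12 was higher in Non-peptidergic (0.60, in 98.1% against 21.2%), SST (0.44) and Low.UMI.Nonpep (0.65, in 13.5% against 26.8%). Kcnk13, known as a microglial channel, was higher in the macrophage-like Unknown.488p (1.68, in 47.9% against 14.7%) and in Non-peptidergic (0.43, in 95.4% against 10.9%) and Low.UMI.Nonpep (0.27). Kcnk1 was higher in Unknown.4 (1.40, in 35.2% against 16.7%) and LTMR (0.46, in 95.8% against 14.0%). All 8 tandem-pore genes were higher in at least 1 named neuron cluster, beside 43.2% of all genes. In an Unknown cluster 3 of 8 were higher, close to the 42.3% of all genes.

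Kcnq1ot1, the non-coding transcript that runs antisense through the imprinted Kcnq1 locus, is no channel subunit but met the naming rule. It was higher in Heat.sen (1.05, in 87.8% of cells against 32.9%), Cold.sen (0.70, in 86.3%) and CGRP-z (0.35, in 81.3%). None of these 3 clusters was listed for Kcnq1 itself. In Low.UMI cells it was lower, in 0.7 to 2.6% of cells. In GENCODE M21, 9 of the 62 members overlap a coding gene on the opposite strand, among them Kcnh7, Kcnip4 and Dpp6, and reads of such partners cannot be told apart if strand was not used in counting. Kcnip1 also overlaps the coding gene 4930469K13Rik on its own strand, where strand could not separate their reads.

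Genes that work with these channels were counted from a list of 26, of which 19 occur in the table. Of these 19, CGRP-n and Cold.sen had 9 higher each (background 9.61% and 11.0% of all genes) and Heat.sen and LTMR 6 each (12.6% and 12.5%). Unknown.4 (5.21%), Unknown.6 (7.39%), Unknown.488p (9.91%) and Low.UMI.Pep (10.8%) had 0. The groups overlapped: Unknown.3 (8.05%) and Low.UMI.LTMR (10.9%) had 4 each, as did CGRP-z (11.3%) and SST (12.5%). CGRP-a (12.5%) and Non-peptidergic (9.86%) had 3 each and Peptidergic.488p (7.05%) had 1. Lower were 7 to 11 of the 19 in Unknown, 7 or 8 in Low.UMI and 0 to 2 in named neuron clusters. Over all genes 27.1%, 20.6% and 6.72% of pairs were lower there. Pacemaker channels oppose potassium currents near rest, and Hcn4, one of their subunit genes, was listed for Cold.sen alone (0.68, in 79.9% of cells against 18.3%). Cntnap2, which clusters Kv1 channels beside the node of Ranvier, was highest in CGRP-a (2.11, in 100% of cells against 37.3%), and the scaffold gene Dlg2 in Cold.sen (2.23, in 93.3% against 21.0%). The anchor gene Ank3, which holds channels at the axon initial segment, was higher in 9 of the 10 named neuron clusters, Peptidergic.488p being the exception, and lower in 9 others. Rest, a repressor of many neuronal channel genes, was higher in Unknown.1 (0.52, in 28.7% against 10.3%), Unknown.3 and Unknown.2.

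Fold change and detection did not always move together. In the Low.UMI clusters 12 of the 13 higher calls of members, 92.3%, were of genes detected less often inside the cluster than outside it, as were 95.3% of the higher calls of all genes there. The exception was Dpp10 in Low.UMI.LTMR, in 41.7% of cells against 31.6%. In the named neuron clusters 14 of 56 lower calls of members, 25.0%, concerned genes found in a larger share of cells, against 46.5% of the lower calls of all genes. Among all 146 higher calls of members in named neurons, 0 went against detection, as did 0.0% of the 10033 higher calls of all genes there.

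**Figure D5:**
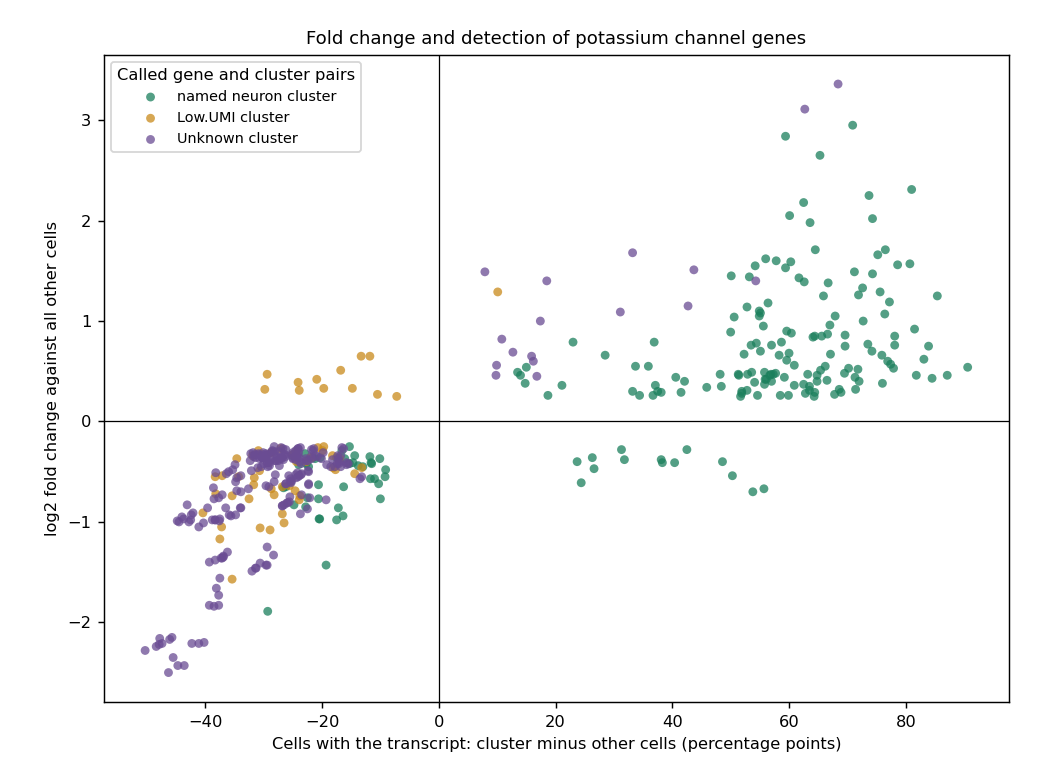
Called pairs of member and cluster by the difference in the share of cells with the transcript (cluster minus other cells, percentage points, horizontal) and by the deposited log2 fold change (vertical). The upper left panel area, higher in mean but found in fewer cells, holds 12 points, all from Low.UMI clusters, and the lower right area holds 14 points from named neuron clusters.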

How the data were processed

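Ganglion cells sorted as NMP-positive or NMP-negative were sequenced with a droplet 3′ kit, per the labels' protocols, which also name a procedure for isolating nuclei. Per the submitters' processing notes the authors used Seurat, version 4.3; the sources used here do not name the aligner, genome build, annotation, cell filters, normalization, clustering or doublet treatment. Per the file headers, the deposited table holds a p-value and adjusted p-value, a log2 fold change and 2 columns with the fraction of cells in which a gene was detected (inside the cluster, then outside), printed here as percentages. The values show how pairs were filtered: p-values reach 0.01 at most, absolute log2 fold changes start at 0.25 and the larger fraction starts at 10.0%. No count or depth per cell is given, so no interval was attached to any value. Cells of both populations are pooled in the table, so NMP-positive and NMP-negative cells were not compared.

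A gene was called at an adjusted p under 0.05. Shares of all cells per cluster were solved by least squares over 6742 genes, leaving out pairs whose fractions differ by less than 5 percentage points, from the fact that the overall share of a gene is the same whichever cluster it is read from (residual 0.0274 percentage points). With these shares each fold change was restated against the mean of all cells. Over the 34 genes listed in all 20 clusters the restated levels, weighted by share, summed to between 0.99999 and 1.00014, where 1 is exact. Differences between clusters, levels in clusters not listed and the share of detecting cells in a cluster come from these values. The steps were tested on simulated data with Python 3.11.15, pandas 2.3.3 and NumPy 2.4.6. Correlations needed at least 6 shared clusters.

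Any member could be named; the rule put forward the 2 members of largest and the 1 of lowest called fold change per cluster and the largest of each role group, 28 genes, and the others are given more briefly. Members, gene lists and role groups were chosen with earlier results of these data known. Alternatives were another fold change or p threshold, agreement with detection, another reference for the fold change, leaving out Low.UMI clusters and ranking by share of cells. Some members and listed genes enter the counts but are not reported here by name.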

Additional observations from a re-analysis of the deposited data

How the results depend on the processing

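The table holds no sample, so no replicate could be left out. No paired analysis was possible because the columns carry no sample or replicate number. Over 24 results, 73 alternative values were compared with the ones reported, of which 55 stayed close (counts within 1.5 times) and 18 did not. Requiring an absolute log2 fold change of at least 0.5 left 7 members higher in CGRP-e, 5 in CGRP-n, 4 in SST, 8 in Non-peptidergic, 4 in Peptidergic.488p, 10 in Heat.sen, 10 in LTMR, 0 in Low.UMI.Pep, 2 in Low.UMI.Nonpep, 2 in Low.UMI.LTMR and 0 in Unknown.1. Pairs called lower then numbered 24 in named neuron, 24 in Low.UMI and 105 in Unknown clusters. These losses follow from the stricter threshold. Shares of all genes at a fold change of 0.5 or at an adjusted p under 0.001 were not computed. No background can therefore be set beside these counts. Requiring that detection moves with the fold change left 0 members higher in Low.UMI.Pep, 0 in Low.UMI.Nonpep and 1 in Low.UMI.LTMR. At an adjusted p under 0.001, 1 member stayed higher in Unknown.5. Against the mean of all cells 59 of 62 members kept their top cluster, without the Low.UMI clusters 60, and ranked by share of cells 42. Depth per cell is unknown, so a transcript not listed may have been missed.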

Other observations

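Several members were found in a large share of cells of clusters for which the authors' deposited table gives no fold change, as solved from the overall shares. Kcnc2 was in 92.1% of the cells of SST and LTMR together, at a log2 level of -0.01 against the mean of all cells. Kcnh7 was in 85.0% of the cells of its 6 clusters not listed, and Kcnb2 in 79.2% of those of Peptidergic.488p and Cold.sen.

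Members whose detecting cells lay mostly in 1 cluster did not need a large fold change. Kcnj6 in LTMR had a log2 fold change of 0.54 and 65.4% of its detecting cells in that cluster. Kcnk9 in Cold.sen had 0.92 and 77.5%, and Kcnq1 in Unknown.1 had 0.45 and 64.2%. Over all 62 members, 7 had more than 50% of their detecting cells in the top cluster, counting Kcnj13 in Unknown.5 at 50.2%, which the rounding of the deposited shares leaves between 47.2% and 53.6%. Of these Kcnj10 (1.40) and Kcnn4 (1.15) had a log2 fold change above 1. How many of all genes had such a share in 1 cluster was not counted.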
